A study of Mus musculus with 6 samples.

Results

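The autophagy machinery was examined as 36 named genes, through every probe set that the platform's annotation ties to 1 of them alone. Probe sets are groups of short probes against a transcript, and 85 of the 45101 on the array met this condition. They covered 35 of the 36 genes, out of 18194 genes with such a probe set in all. Optn, a cargo receptor, had no probe set of its own in that annotation and is named only.

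RNA of 6 samples from ovariectomized female C57BL/6 mice was measured, with 1 Affymetrix mouse genome array per sample. The 3 OVX samples came from mice with placebo pellets, and the 3 OVX + E2 samples came from mice with 17β-estradiol pellets that deliver 0.18 mg during 60 days. All mice lost their ovaries at 4 months of age, and none of the 6 samples comes from a mouse with intact ovaries. The sources used here do not say that each array is a separate mouse, so the p-values measure only the spread between these samples. The sample labels name left ventricle, while the study's methods name soleus, a slow postural leg muscle. All 8 slow-fibre markers and all 10 fast-fibre markers, each by its brightest probe set, lay in the brightest 5% of all probe sets. Of 8 heart markers only Sln did, and Myh6, the atrial and ventricular alpha myosin of the mouse, stood at percentile 66.1. The 2 groups were the same in both sources.

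Autophagy encloses part of the cytoplasm in a double membrane and delivers it to the lysosome. The Ulk1 complex starts the process, a lipid kinase complex around Becn1 marks the site, and Wipi, Atg2 and Atg9a proteins supply membrane. Ubiquitin-like conjugation then attaches the Atg8 family, LC3 and GABARAP, to the membrane, where cargo receptors such as Sqstm1 dock. In skeletal muscle this pathway removes worn organelles and breaks down protein during fasting and disuse.

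Values are log2 units of the deposited table, and differences are OVX + E2 minus OVX. A gene was represented by its brightest probe set, and was counted as lower or higher at an unadjusted p under 0.05 in limma. The machinery was lower with E2 by this measure, by small amounts. Of 35 genes, 34 had a difference below 0, as did 55% of all genes. Of these members 11 were lower, which is 31.4%, against 13.3% of all genes. None was higher, against 4.62% of all genes. The 11 were Ulk1, Ulk2, Becn1, Wipi2, Atg2a, Atg9a, Atg4a, Atg5, Map1lc3a, Vps11 and Tfeb. Over the member genes the median difference was -0.11, and over all genes it was -0.01. Groups stood fully apart in 12 member genes, all with E2 lower, beside 15.3% of all genes apart in that direction. Counted by probe set, 18 of 85 were lower, against 9.43% of all probe sets. No member passed after Benjamini-Hochberg adjustment, and neither did any other probe set on the array. The smallest adjusted p in limma was 0.308, for the members and for all probe sets alike.

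Bright probe sets were lower more often than dim ones on the whole array. Among all probe sets with a mean log2 value of 8 or more, 90.4% had a difference below 0 and 32.8% were lower. Of the 32 member probe sets this bright, all were below 0 and 11 were lower, or 34.4%, so the bright members were called about as often as other bright probe sets. Groups stood fully apart with E2 lower in 11 of these 32 and in 2908 of all 8643 this bright, which are close shares. Among dimmer probe sets, 3.89% of all were lower, and 7 of 53 member probe sets were, or 13.2%. These 7 belonged to Atg13, Atg5, Wipi1, Wipi2 and Vps11, with more than 1 each for Wipi1 and Vps11. The dimmer member probe sets had a median level of 7.15 against 6.75 for all dimmer ones, so these shares are not matched for brightness. Cyclic loess, which removes differences between arrays that depend on brightness, left 3 of the 35 member genes lower, Atg9a, Atg5 and Tfeb. That is 8.57% of them, against 3.3% of all genes. Below 0 were then 23 of 35 member genes, against 47.4% of all genes, and their median was -0.03. With each gene represented instead by its probe set of largest interquartile range over the arrays, loess left 7 of 35 lower, against 5.06% of all genes. That representation was combined with loess after the data were seen. The spread over all arrays includes the difference between groups, so this choice favours probe sets whose groups differ, most for genes with several probe sets. The 7 are therefore not a separate line of support. Values after loess are given below beside the deposited ones.

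**Figure D1:**
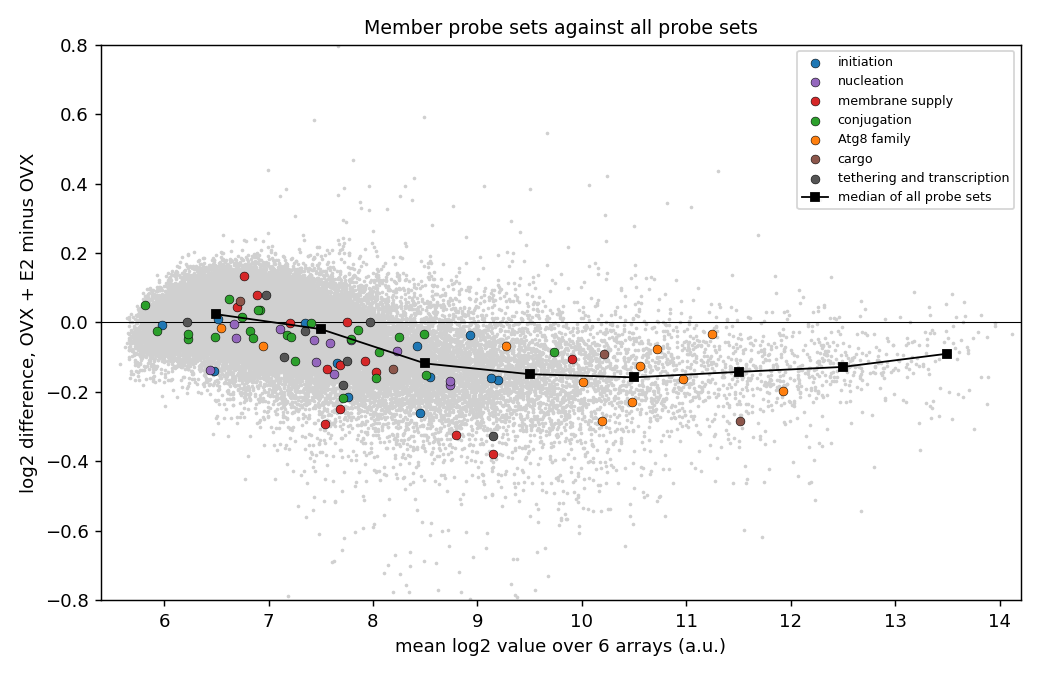
Log2 difference, OVX + E2 minus OVX, of each probe set against its mean log2 value over the 6 arrays. Grey points are all probe sets, coloured points the 85 member probe sets by stage, and black squares the median of all probe sets in each range of 1 log2 unit, which falls from 0.02 at means of 6 to 7 to -0.16 at 10 to 11. Grey points beyond the axis limits are not drawn.

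By stage, 2 of 4 initiation genes were lower, 1 of 6 nucleation genes, 3 of 5 membrane supply genes, 2 of 10 conjugation genes, 1 of 5 Atg8 family genes and 0 of 2 cargo receptors. In the tethering and transcription group 2 of 3 were lower. The stage medians ran from -0.19 for cargo receptors through -0.16 for both initiation and the Atg8 family, -0.13 for membrane supply, -0.11 for tethering and transcription and -0.10 for nucleation to -0.07 for conjugation. After loess they lay between -0.07, for membrane supply, and 0.00, for conjugation. The cargo median rests on 2 genes and was -0.13 without the third OVX + E2 array, when that of initiation was -0.14. Differences between stages were not tested, since genes are not replicates.

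**Figure D2:**
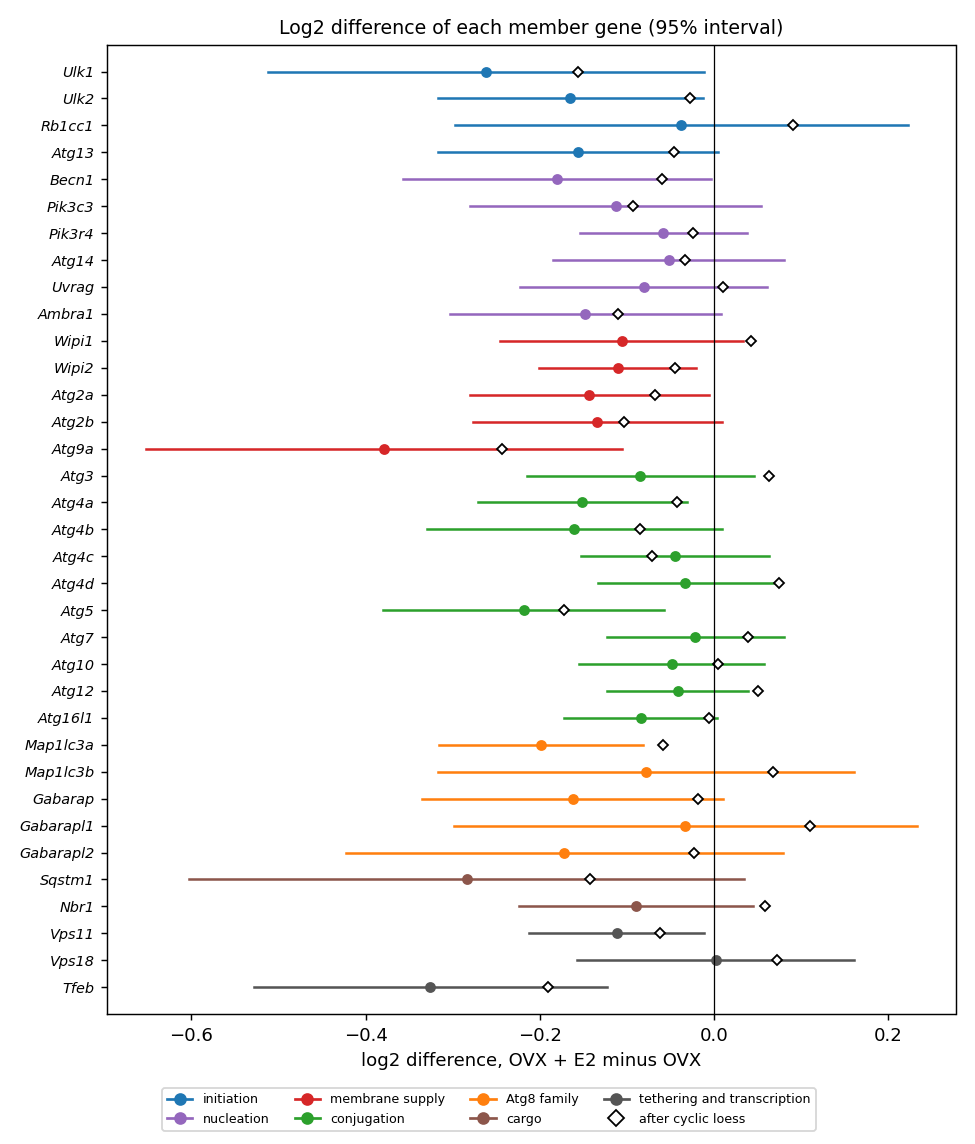
Log2 difference, OVX + E2 minus OVX, of the 35 measured member genes, coloured by stage. Filled circles and lines are the limma estimate and its 95% interval on the deposited values, and open diamonds the estimate after cyclic loess. In the deposited values 34 genes lie left of 0, and 11 intervals exclude 0.

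The initiation kinases Ulk1 and Ulk2 were both lower with E2. Ulk1, the kinase that answers to nutrient and energy sensors, read 8.50, 8.43 and 8.81 in OVX against 8.45, 8.27 and 8.24 in OVX + E2. The third OVX array was the highest, and the groups overlapped. The difference was -0.26 (SE 0.11, n = 3 per group, unadjusted p = 0.043 in limma) and -0.16 after loess (unadjusted p = 0.154 in limma). Its related kinase Ulk2 read 9.22, 9.21 and 9.40 against 9.17, 9.04 and 9.13. The groups were apart by a narrow gap. Its difference was -0.17 (SE 0.06, unadjusted p = 0.037 in limma), all 4 of its probe sets were below 0, and after loess it was -0.03. The scaffold Rb1cc1 differed by -0.04 and the adaptor Atg13 by -0.16, and neither passed (unadjusted p = 0.745 and 0.055 in limma).

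Nucleation held 1 lower gene. Becn1, the scaffold of the phosphatidylinositol 3-kinase complex, read 8.81, 8.76 and 8.93 in OVX against 8.76, 8.68 and 8.51 in OVX + E2, so that the groups met at 8.76. The difference was -0.18 (SE 0.08, unadjusted p = 0.047 in limma) and -0.06 after loess. All 5 Becn1 probe sets were below 0, and 2 of them were lower. The catalytic subunit Pik3c3, the regulatory subunit Pik3r4, and Atg14, Uvrag and Ambra1, which assemble or activate the complex, differed by -0.05 to -0.15 and did not pass.

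Membrane supply held the gene with the largest difference of the 35. Atg9a, the transmembrane protein whose vesicles seed the new membrane, read 9.25, 9.23 and 9.54 in OVX against 9.13, 9.00 and 8.75 in OVX + E2. All OVX arrays were above all OVX + E2 arrays, and the arrays numbered 3 were the extremes on both sides. The difference was -0.38 (95% interval -0.65 to -0.11, unadjusted p = 0.0134 in limma), or 0.769 of the OVX level. It was -0.24 after loess (unadjusted p = 0.0469 in limma) and -0.18 without the arrays numbered 3 (unadjusted p = 0.0251 in limma).

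The lipid-transfer protein Atg2a read 8.10, 8.13 and 8.07 in OVX against 8.08, 7.92 and 7.88 in OVX + E2. The first OVX + E2 array lay within the OVX range. The difference was -0.14 (SE 0.06, unadjusted p = 0.043 in limma), and it was -0.07 after loess. Wipi2, which reads the lipid mark and recruits the conjugation machinery, read 7.96, 8.01 and 7.98 against 7.87, 7.84 and 7.91, with the groups apart. Its difference was -0.11 (SE 0.04, unadjusted p = 0.023 in limma) and -0.04 after loess. A dimmer Wipi2 probe set went the other way, with 6.64, 6.74 and 6.73 in OVX against 6.83, 6.85 and 6.83 in OVX + E2. It was the only member probe set of the 85 that was higher (0.13, SE 0.04, unadjusted p = 0.0137 in limma), against 4.35% of all probe sets, and the third Wipi2 probe set differed by -0.12 with the groups apart (unadjusted p = 0.060 in limma). Of the 3 Wipi2 probe sets only the dimmest was above 0.

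**Figure D3:**
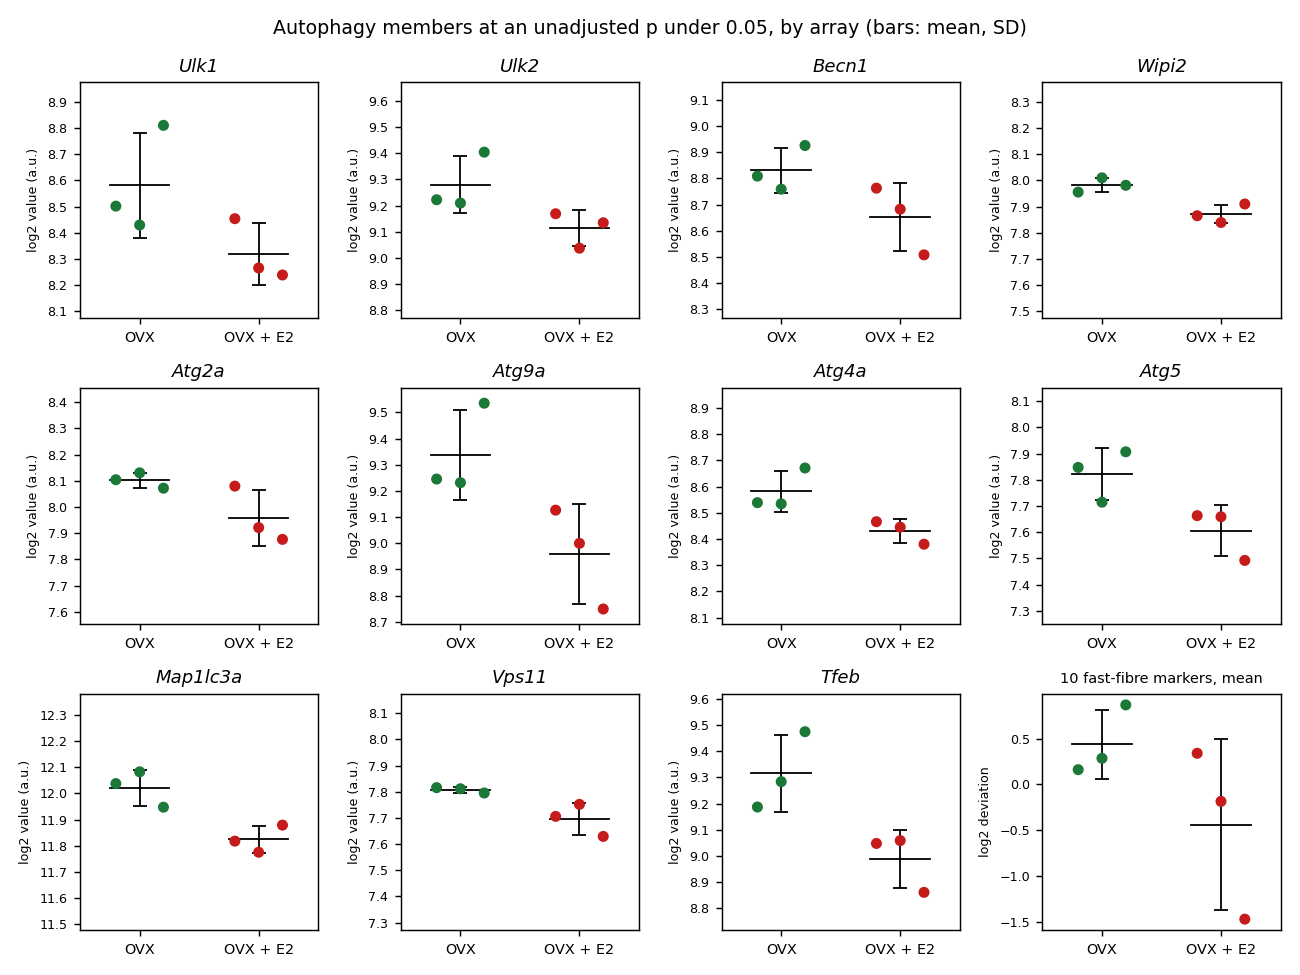
Deposited log2 values of the 11 lower member genes on each of the 6 arrays, and the mean log2 deviation of 10 fast-fibre markers. Points are arrays in the order of their replicate numbers, and bars are the mean and SD of 3. The gene panels span the same number of log2 units, and Atg9a and Tfeb show the widest separation of means.

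Wipi1, the paralogue of Wipi2 that binds the same lipid, had 6 probe sets that did not behave alike. Its brightest, 1439060_s_at, read 9.83, 10.01 and 10.03 in OVX against 9.81, 9.88 and 9.86 in OVX + E2, and did not pass (difference -0.11, unadjusted p = 0.117 in limma). The other probe sets were singled out after their values were seen. Probe set 1456624_at read 7.68, 7.65 and 7.73 against 7.38, 7.49 and 7.31, with a clear gap between the groups. It alone among the member probe sets reached the stricter limma threshold of 0.001 before adjustment, which 0.197% of all probe sets reached in the lower direction. Its difference was -0.29 (SE 0.05, unadjusted p = 0.0009 in limma) and -0.26 after loess (unadjusted p = 0.0010 in limma).

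Of the other Wipi1 probe sets, 1424917_a_at read 8.83, 8.93 and 9.11 in OVX against 8.68, 8.71 and 8.50 in OVX + E2. It differed by -0.32 (SE 0.09, unadjusted p = 0.0067 in limma), with the groups apart. Probe set 1438709_at read 7.67, 7.87 and 7.89 against 7.52, 7.58 and 7.60, also apart, and differed by -0.25 (SE 0.07, unadjusted p = 0.0069 in limma). After loess these were -0.20 and -0.20. The remaining 2, 1427323_s_at and 1452392_a_at, differed by 0.00 and 0.04. By the platform's naming, the suffix s marks probes shared by several transcripts, and which transcripts each probe set reads was not analysed here. The fall of Wipi1 therefore holds for 3 of its 6 probe sets and not for its brightest.

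**Figure D4:**
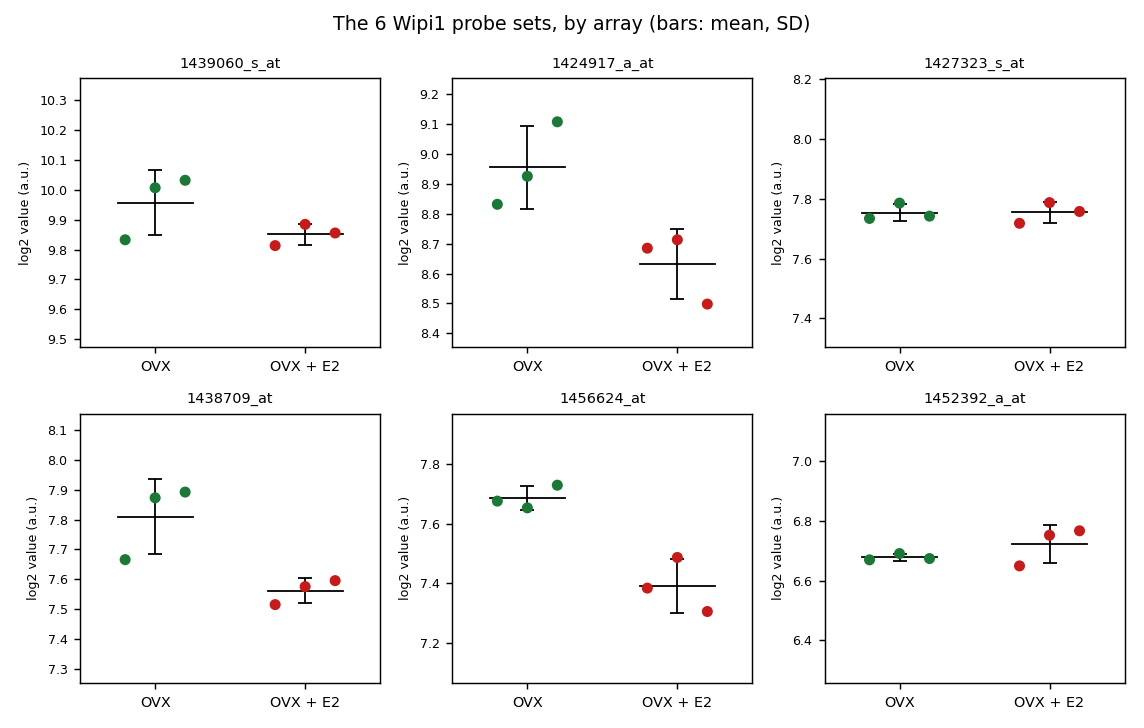
Deposited log2 values of the 6 Wipi1 probe sets on each array, with the mean and SD of 3 as bars and the same span of log2 units in each panel. In 1424917_a_at, 1438709_at and 1456624_at all OVX points lie above all OVX + E2 points, and in the other 3 the groups overlap.

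Conjugation was measured by 10 genes, all below 0 and mostly by little. Atg5, which is joined to Atg12 and helps place LC3 on the membrane, read 7.85, 7.71 and 7.91 in OVX against 7.66, 7.66 and 7.49 in OVX + E2, with the groups apart. Its difference was -0.22 (SE 0.07, unadjusted p = 0.0149 in limma) and -0.17 after loess (unadjusted p = 0.027 in limma). The other 2 Atg5 probe sets differed by -0.04 and 0.03, and without the arrays numbered 3 the difference was -0.12 (unadjusted p = 0.0935 in limma).

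Atg4a, a protease that trims Atg8 proteins before conjugation and frees them afterwards, read 8.54, 8.53 and 8.67 against 8.47, 8.45 and 8.38, with the groups apart. The difference was -0.15 (SE 0.05, unadjusted p = 0.021 in limma) and -0.04 after loess. The 8 conjugation genes that did not pass were the proteases Atg4b, Atg4c and Atg4d, the E1-like Atg7, the E2-like Atg3 and Atg10, the ubiquitin-like Atg12 and its partner Atg16l1, and they ran from -0.16 to -0.02. Atg12 and Atg16l1 were apart between groups without passing.

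The Atg8 family, whose members end up on the autophagosome itself, held 1 lower gene. Map1lc3a, one of the LC3 proteins, read 12.04, 12.08 and 11.95 in OVX against 11.82, 11.78 and 11.88 in OVX + E2. Here the third OVX array was the lowest of its group, while in Atg9a it was the highest. The groups were apart in both genes. The difference was -0.20 (SE 0.05, unadjusted p = 0.0051 in limma) and -0.06 after loess (unadjusted p = 0.343 in limma). A second Map1lc3a probe set read 10.39, 10.36 and 10.26 against 10.11, 10.07 and 9.97, again with no overlap. It differed by -0.28 (SE 0.05, unadjusted p = 0.0011 in limma) and by -0.14 after loess (unadjusted p = 0.033 in limma).

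The better known LC3 gene Map1lc3b read 10.85, 10.53 and 10.91 in OVX against 10.71, 10.76 and 10.59 in OVX + E2, with full overlap. The difference was -0.08 (95% interval -0.32 to 0.16, unadjusted p = 0.468 in limma) and 0.07 after loess. All 4 Map1lc3b probe sets were below 0 and none passed. The next brightest, 1415928_a_at, differed by -0.13 (unadjusted p = 0.055 in limma) and by 0.02 after loess. Nearly as bright, 1415929_at differed by -0.23 (unadjusted p = 0.088 in limma) and by -0.08 after loess. The dimmest differed by -0.01. Gabarap read 11.14, 11.01 and 11.00 against 10.98, 10.95 and 10.74, apart by a narrow gap, and differed by -0.16 (unadjusted p = 0.062 in limma). Gabarapl1 read 11.35, 11.27 and 11.17 against 11.11, 11.50 and 11.08, where the second OVX + E2 array was the highest of all 6, and differed by -0.03 (unadjusted p = 0.780 in limma). Gabarapl2 read 10.13, 9.89 and 10.29 against 9.95, 10.04 and 9.80 and differed by -0.17 (unadjusted p = 0.151 in limma). The groups overlapped for Gabarapl1 and Gabarapl2. After loess Gabarapl1 stood at 0.11, while Gabarap and Gabarapl2 stood at -0.02 each.

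The cargo receptors are given although neither passed. Sqstm1, or p62, which carries ubiquitinated cargo and is itself degraded by autophagy, read 11.72, 11.45 and 11.80 in OVX against 11.49, 11.53 and 11.09 in OVX + E2. The third OVX + E2 array was far below the others, and the groups overlapped. The difference was -0.28 (95% interval -0.60 to 0.03, unadjusted p = 0.073 in limma), and -0.14 without that array. It passed without OVX array 2 (-0.39) and without OVX + E2 array 2 (-0.36). Nbr1, a related receptor, read 10.37, 10.21 and 10.19 against 10.15, 10.13 and 10.22 and differed by -0.09 (unadjusted p = 0.161 in limma). After loess Sqstm1 stood at -0.14 and Nbr1 at 0.06.

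Tfeb, the transcription factor that drives autophagy and lysosome genes, read 9.19, 9.28 and 9.47 in OVX against 9.05, 9.06 and 8.86 in OVX + E2. The groups were apart, and the arrays numbered 3 were again the extremes. The difference was -0.33 (95% interval -0.53 to -0.12, unadjusted p = 0.0066 in limma), or 0.798 of the OVX level. It was -0.19 after loess (unadjusted p = 0.0383 in limma) and -0.18 without the arrays numbered 3 (unadjusted p = 0.0154 in limma). Vps11, a subunit of the tethering complex that brings autophagosome and lysosome together, read 7.82, 7.81 and 7.80 against 7.71, 7.75 and 7.63, with the groups apart. It differed by -0.11 (SE 0.04, unadjusted p = 0.034 in limma) and by -0.06 after loess. Vps18, of the same complex, was the 1 member gene not below 0, at 0.00 (unadjusted p = 0.978 in limma).

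The arrays numbered 3 were often the extremes of their groups. The third OVX array was the highest of the 6 in 21 of 35 member genes, or 60%, against 22.9% of all genes. The third OVX + E2 array was the lowest in 19, or 54.3%, against 24.3% of all genes. Fast-fibre markers moved the same way. Their mean deviation was 0.16, 0.29 and 0.87 in OVX against 0.34, -0.19 and -1.47 in OVX + E2, a difference of -0.88 that did not pass an exact two-sided permutation test (p = 0.3, where 3 against 3 arrays cannot go below 0.1). Without both arrays numbered 3, 4 of the 35 member genes were lower, Wipi2, Atg9a, Map1lc3a and Tfeb, a share close to the 10.8% of all genes. With the fast-fibre mean as a covariate the lower genes were again these 4, against 6.01% of all genes, with Map1lc3a at -0.25, Tfeb at -0.19, Atg9a at -0.17 and Wipi2 at -0.13. Atg5 did not pass with the covariate (unadjusted p = 0.111 in limma).

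Leaving out 1 array at a time, Atg9a, Atg5, Map1lc3a and Tfeb passed in all 6 fits, and the other 7 lower genes lost the call in some. Ulk1 did not pass without OVX array 1 (-0.30) or 3 (-0.15) or without OVX + E2 array 2 (-0.23) or 3 (-0.22). Ulk2 did not pass without OVX array 3 (-0.10) or OVX + E2 array 2 (-0.13) or 3 (-0.18). Becn1 did not pass without OVX array 1 (-0.19) or 3 (-0.13) or OVX + E2 array 2 (-0.20) or 3 (-0.11). Each of these 3 calls was thus lost without any of several arrays, in some fits although the difference grew. A fit with 1 array fewer is also less precise, so a lost call does not show that it rested on that array. For each gene the value moved by over 1.5 times without 1 array numbered 3. Wipi2 did not pass without OVX array 2 (-0.10) or OVX + E2 array 1 (-0.11) or 2 (-0.09). Atg4a did not pass without OVX array 3 (-0.11) or OVX + E2 array 3 (-0.13). Atg2a passed only without OVX + E2 array 1 (-0.20), and was -0.16 to -0.10 without any other array. Vps11 likewise passed only without OVX + E2 array 2 (-0.14), and was -0.12 to -0.08 otherwise. Some Atg8 genes passed in 1 of the 6 fits, Map1lc3b (-0.19) and Gabarapl2 (-0.28) without OVX array 2, Gabarap (-0.21) without OVX + E2 array 1 and Gabarapl1 (-0.17) without OVX + E2 array 2.

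In whole muscle, fewer cells of a type and less RNA per cell cannot be told apart. Of the 10 fast-fibre markers 2 were lower, Tnni2 (-0.20) and Tnnc2 (-0.16). The 10 differences had a median of -0.56. They ran from -2.15 for Myh4, which did not pass (unadjusted p = 0.146 in limma), to -0.15 for Myh1. Of 6 fibroblast markers 2 were lower, Pdgfra and Dcn, and the list's mean level spanned 8.98 to 9.37 in OVX against 8.84 to 9.08 in OVX + E2. Both counts stand beside 13.3% of all genes lower, and 32.8% of all probe sets with a mean log2 value of 8 or more. No slow-fibre, heart, fat cell, macrophage, endothelial or red blood cell marker was lower or higher. The part of fibre or cell make-up in the autophagy values was not tested beyond these fits.

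**Figure D5:**
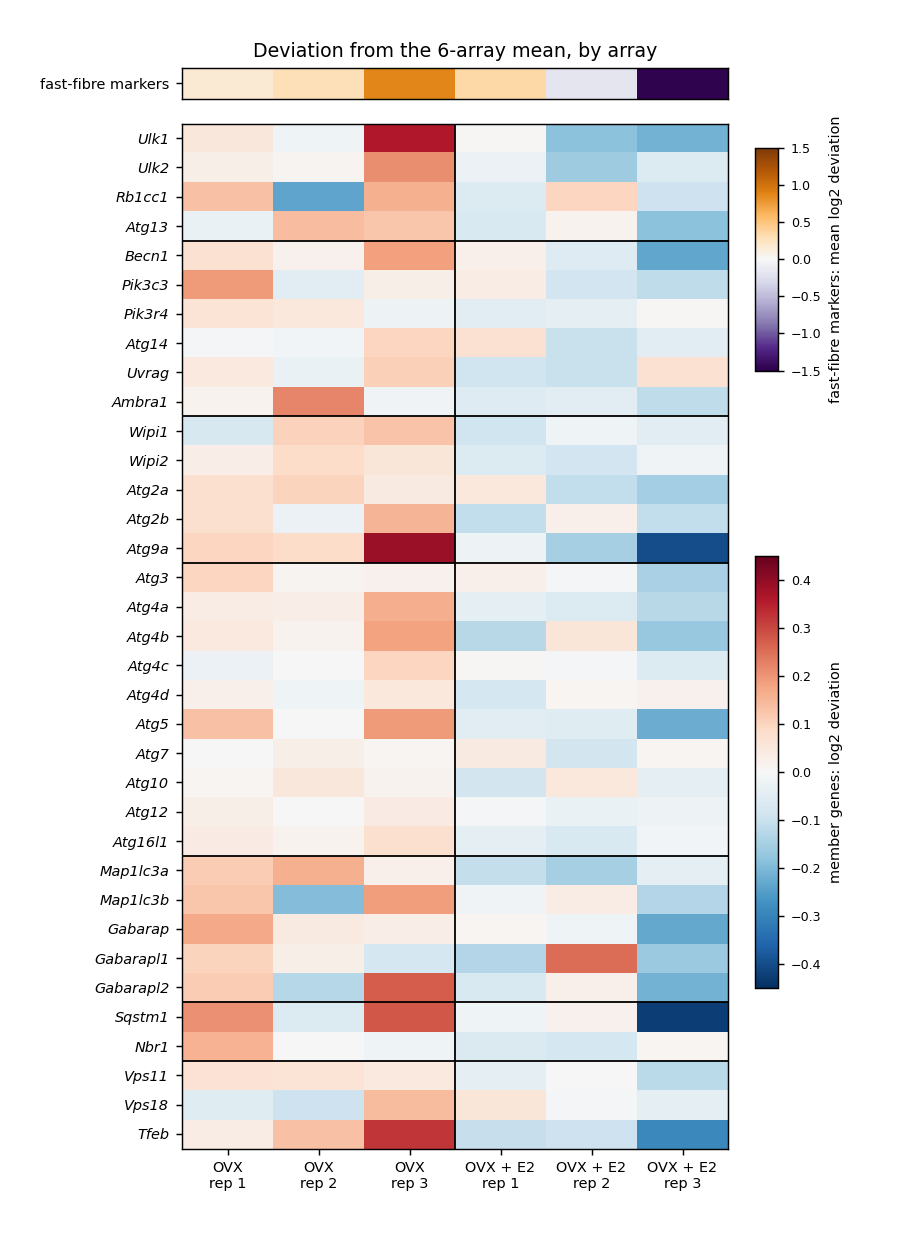
Log2 deviation of each of the 35 member genes from its mean over the 6 arrays, with the mean deviation of 10 fast-fibre markers above on its own colour scale. Columns are arrays and horizontal lines separate the stages. The third OVX column holds the strongest red, the third OVX + E2 column the strongest blue, and the fast-fibre row runs from 0.87 to -1.47 at the same arrays.

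Another 24 genes of the pathway that are not among the 36 gave a similar count. Below 0 were 22, and 10 were lower, or 41.7%, against the 13.3% of all genes above. None was higher, and the median difference was -0.11. These genes were bright, with a median level of 8.33 against 7.26 for all genes. Of the 24, 12 lay below the median difference of all probe sets in their own brightness range. After loess their median was -0.005, and 4.17% were lower, against 3.3% of all genes. Atg101, the partner of Atg13 in the Ulk1 complex, read 7.62, 7.58 and 7.74 in OVX against 7.41, 7.37 and 7.24 in OVX + E2, clearly apart. It differed by -0.31 (SE 0.06, unadjusted p = 0.0015 in limma) and by -0.28 after loess (unadjusted p = 0.0017 in limma).

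The other 9 were spread over later steps. Vmp1 (-0.21), a membrane protein of early autophagosome formation, the receptors Tax1bp1 (-0.12) and Calcoco1 (-0.22), the tether Epg5 (-0.16) and the fusion protein Stx17 (-0.17) were lower. So were the small GTPase Rab7 (-0.21) and the tethering subunits Vps33a (-0.20), Vps39 (-0.10) and Vps41 (-0.20). Calcoco1 passed whichever 1 array was left out, and the other 8 passed in 1 to 5 of these 6 fits. After loess 1 of the 24 was lower, Atg101, and 2 were higher (4.5% of all genes were), Tmem41b at 0.14 and Tecpr1 at 0.17, both of which act in membrane handling.

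Promoter sequences of RefSeq (GRCm38.p6), from 250 bases before to 50 after each listed start, were found for 29 of the members and 34 starts. A listed start need not be the first base of the annotated gene. Both strands were searched for the full palindromic estrogen response element, its AGGTCA arm, which the full element contains, the TFEB E-box CACGTG and the FoxO motif GTAAACA. The full element was in 0 member promoters and in 0.0548% of all 32851 promoters, and the FoxO motif in 0 and in 3.65%. The arm was in 6 of 34 member promoters, those of Atg10, Atg4a, Gabarapl2, Nbr1, Pik3r4 and Ulk2, and in 16.3% of all. The E-box was in 4 of 34, those of Atg14, Atg3, Atg5 and Atg7, and in 7.15% of all. These are matches of letters and not sites of binding. Shown are the promoters of Wipi1 and Atg9a, whose probe sets had the smallest p and the largest difference and which held none of the motifs, and those of Atg5 and Ulk2, lower genes with a match. Capitals mark CACGTG in Atg5, which begins 14 bases before the listed start, and AGGTCA in Ulk2, which begins 242 bases before its own. Both listed starts lie inside the annotated genes, whose first bases are 44268322 for Atg5 and 61855334 for Ulk2. Neither match lies upstream of that first base.
Wipi1, chr11:109611340-109611639, minus strand: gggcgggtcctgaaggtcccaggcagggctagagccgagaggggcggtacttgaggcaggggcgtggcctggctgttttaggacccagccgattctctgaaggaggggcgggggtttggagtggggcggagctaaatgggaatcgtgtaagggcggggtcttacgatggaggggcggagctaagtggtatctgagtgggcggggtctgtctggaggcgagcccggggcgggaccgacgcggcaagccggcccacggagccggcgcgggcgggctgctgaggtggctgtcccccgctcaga
Atg9a, chr1:75191961-75192260, minus strand: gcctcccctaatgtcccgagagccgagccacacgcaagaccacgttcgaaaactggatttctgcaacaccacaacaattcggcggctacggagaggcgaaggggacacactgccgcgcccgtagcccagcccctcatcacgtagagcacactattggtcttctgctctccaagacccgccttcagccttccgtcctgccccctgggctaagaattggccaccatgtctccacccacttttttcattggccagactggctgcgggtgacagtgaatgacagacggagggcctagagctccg
Atg5, chr10:44268089-44268388, plus strand: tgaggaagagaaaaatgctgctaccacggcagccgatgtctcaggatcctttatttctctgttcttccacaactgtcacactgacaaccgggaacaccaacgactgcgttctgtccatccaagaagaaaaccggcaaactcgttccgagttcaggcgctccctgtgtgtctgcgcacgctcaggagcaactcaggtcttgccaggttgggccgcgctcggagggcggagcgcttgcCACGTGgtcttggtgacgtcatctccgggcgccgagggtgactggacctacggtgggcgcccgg
Ulk2, chr11:61855043-61855342, minus strand: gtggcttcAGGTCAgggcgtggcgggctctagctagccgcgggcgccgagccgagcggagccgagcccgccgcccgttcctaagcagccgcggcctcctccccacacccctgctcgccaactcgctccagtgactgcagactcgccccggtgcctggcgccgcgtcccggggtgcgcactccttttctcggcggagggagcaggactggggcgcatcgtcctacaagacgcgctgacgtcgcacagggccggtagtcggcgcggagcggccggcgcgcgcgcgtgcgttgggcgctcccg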

How the data were processed

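RNA of 6 samples, 3 OVX and 3 OVX + E2, was hybridized to 1 array each, and samples were grouped by the treatment in the labels. Per the study's methods and the labels, the authors background-corrected the scans, applied variance stabilizing normalization and median polish (R 2.14.2). The deposited table holds the resulting log2 values, in arbitrary units, in which differences of dim probe sets are compressed. Scans and detection calls were not used here. Precision is set by the 3 arrays per group. Of the probe sets 34958 had 1 symbol, 932 several and 9211 none. A moderated linear model (limma 3.58.1, functions lmFit and eBayes, R 4.3.3) was fitted to all probe sets with the 2 groups as its only term. Tests are two-sided, and adjusted p-values are Benjamini-Hochberg over all probe sets. The fit was tested on simulated data. Genes are represented by the probe set with the highest mean. Values per array are given for the members with an unadjusted p under 0.05, the Atg8 family and Tfeb, and non-members are named from the list of other autophagy genes at that p or from the marker lists. The Wipi1 and second Wipi2, Atg5 and Map1lc3a probe sets and the further Map1lc3b probe sets were chosen after their values were seen. So were Sqstm1, Nbr1, Tmem41b, Tecpr1 and the genes named beside them. Members and lists were chosen with earlier results of these data known. Alternatives were quantile normalization, cyclic loess, median centring, a brightness filter, a replicate block, an intensity trend, the probe set with the largest interquartile range, the fast-fibre covariate, and leaving out arrays.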

Additional observations from a re-analysis of the deposited data

How the results depend on the processing

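Deposited values gave 11 lower member genes. This was 3 after quantile normalization (2.57% of all genes were lower) and 3 after loess (3.3%). It was 17 with median centring, 7 among genes brighter than the median, 7 with the replicate block and 5 with an intensity trend. It was 4 with the fast-fibre covariate (6.01% of all genes) and 4 when both arrays numbered 3 were left out (10.8%). The share of all genes was not counted for median centring, the filter, the block, the trend or leaving out 1 array. Counts under those settings therefore cannot be read as particular to the members. With the largest interquartile range alone it was 9, or 25.7%, against 13% of all genes. With loess and the largest interquartile range together, a pair of choices added after seeing the data, it was 7, against 5.06% of all genes. Of member probe sets 18 were lower. Under the settings from quantile normalization to leaving out both arrays numbered 3, in that order, this was 8, 10, 27, 13, 13, 12, 8 and 10. Of all probe sets 3.33% were lower after quantile normalization and 4.02% after loess, and the share was not counted for the other settings. The 1 higher probe set, with a mean of 6.77, was removed by the brightness filter before the fit, so its absence there is no result. Without both arrays numbered 3 the higher probe sets were 2. Of the other autophagy genes 10 were lower, and this was 1 after quantile normalization or loess, 5 with the filter or the replicate block, 6 with the trend, 2 without both arrays numbered 3 or with the covariate 4 with the largest interquartile range and 1 with this and loess. Their higher count of 0 became 2 after quantile normalization and after loess, and 1 with loess and the largest interquartile range. The median over member genes, -0.11, was -0.021, -0.034 and -0.046 under those 3 settings. Leaving out 1 array gave 6 to 13 lower member genes, 12 to 23 lower and 1 to 2 higher member probe sets, and 2 to 11 lower other genes, with 6 member genes left without OVX replicate 3 and 6 without OVX + E2 replicate 3. The causes were not tested.

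Some named values changed sign. After quantile normalization Map1lc3b was 0.076, Gabarap 0.0050, Gabarapl1 0.13, Gabarapl2 1.8e-04, Nbr1 0.078, Tax1bp1 0.048 and the brightest Wipi1 probe set 0.066. After loess Map1lc3b was 0.068, Gabarapl1 0.11, Nbr1 0.058, Tax1bp1 0.023 and the brightest Wipi1 probe set 0.042. With loess and the largest interquartile range Map1lc3b was 0.068 and Gabarapl1 0.071. Without both arrays numbered 3 Map1lc3b was 0.044, and with the covariate 0.013. Wipi1 1427323_s_at was -0.016 with median centring, -0.0074 without both arrays numbered 3, -0.012 with the covariate and -0.016 to 0.018 on leaving out 1 array, where Gabarapl1 ran from -0.17 to 0.043. Atg9a and Tfeb passed under all 16 settings, but each rests on 1 probe set. For them the choice by largest interquartile range repeats the deposited fit, and with loess it repeats the loess fit. Same-numbered arrays deviated from their group means with correlations of -0.125, -0.2 and -0.342, so they were not alike. These values cannot tell whether the samples were handled in pairs, and the replicate block is given only here.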
